A study of Homo sapiens with 6 samples.

Results

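The data describe 10 transcription factors and RNA-binding or chromatin proteins that are associated with pluripotency and self-renewal: SOX2, POU5F1, NANOG, MYC, LIN28A, LIN28B, SALL4, BMI1, SOX4 and SOX9. They were chosen by name, and every probe that the platform annotation assigns to 1 of these symbols was taken, which gave 14 of the 47322 probes on the array and 10 of the 20045 genes with a probe. Expression was measured on Illumina HT-12 v4 BeadChips in H460, an established human large cell lung carcinoma line, after it had been separated by invasiveness. H-INV cells are the ones that crossed an insert membrane covered with basement membrane extract, and L-INV cells the ones that stayed on top of it. Per the labels each round lasted 48 hours and 6 rounds were run, with reselection every 6 passages, while the study's methods give another duration and another number of rounds. Both subpopulations were kept in glucose-free RPMI-1640 medium with serum between rounds, so neither is the parental line in its usual medium. RNA came from 3 sets of cells of each subpopulation, with 1 array a set. By the study's supplement, the selected cells were frozen as stocks, then thawed and reselected before RNA was taken. Whether the sets were selected, thawed or reselected separately is not stated in the sources used here. The p-values thus speak only for the variation among these 3 sets, which could be technical.

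SOX2, POU5F1 (OCT4) and NANOG form the transcription factor circuit that keeps embryonic stem cells undifferentiated, in which SOX2 and POU5F1 bind DNA side by side and activate each other's genes and their own. LIN28A and LIN28B block the processing of the let-7 microRNAs, which otherwise silence growth-promoting messages such as those of MYC and HMGA2. SALL4 supports the same circuit and recruits the NuRD deacetylase complex, BMI1 is a subunit of Polycomb repressive complex 1, and SOX4 and SOX9 are SOX family factors that act in progenitor cells, SOX9 also in the tips of the growing lung airways.

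The members did not move as a block. Of the 10 genes, 5 could be compared between H-INV and L-INV cells, and of these SOX2 was higher in H-INV cells, SOX4, SOX9 and BMI1 were lower, and MYC did not pass the test. The other 5, POU5F1, NANOG, LIN28A, LIN28B and SALL4, had no probe above background on any of the 6 arrays. A probe was counted as above background on an array where its detection p-value, from that array's negative control probes, was under 0.01. A gene was tested where any of its probes met this on at least 3 of the 6 arrays, through the brightest of these. Calls were made with limma at an adjusted p under 0.05 over all 10279 genes tested, of which 58% were called, 32.6% as higher in H-INV cells, against 25.4% as lower. The members' 1 higher and 3 lower calls of 5 tested stand against that background, so a call on its own is common here. Past a 2-fold change as well, 10.2% of the genes were called, 4.22% higher and 6.02% lower, and among the members these were SOX2 and SOX4. The median log2 fold change was -0.35 over the 5 members tested and 0.05 over all 10279 genes.

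The promoters of SOX2, SOX4 and NANOG are shown because they belong to the member that was higher, the member with the largest fall and a member at background. RefSeq promoter windows of the GRCh38.p14 build were taken for 5 of the 10 members, not for MYC among others. Each sequence below is the 250 bases before the annotated start, on the + strand. Capitals mark matches, on either strand, to the GC box GGGCGG, the CCAAT box CCAAT or the SOX core ACAATG, with no overlap between matches in these windows. The motifs E-box CACGTG, octamer ATGCAAAT and TATA box TATAAA were searched too and had no match in these 3 windows. Only exact strings were searched, so near matches to any motif are not marked.
SOX2, chr3:181711675-181711924: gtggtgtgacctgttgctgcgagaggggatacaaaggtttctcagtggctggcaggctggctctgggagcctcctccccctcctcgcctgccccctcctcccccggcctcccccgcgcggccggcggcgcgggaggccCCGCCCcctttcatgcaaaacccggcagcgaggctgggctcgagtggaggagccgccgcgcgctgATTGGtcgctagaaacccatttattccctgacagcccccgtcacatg
SOX4, chr6:21593501-21593750: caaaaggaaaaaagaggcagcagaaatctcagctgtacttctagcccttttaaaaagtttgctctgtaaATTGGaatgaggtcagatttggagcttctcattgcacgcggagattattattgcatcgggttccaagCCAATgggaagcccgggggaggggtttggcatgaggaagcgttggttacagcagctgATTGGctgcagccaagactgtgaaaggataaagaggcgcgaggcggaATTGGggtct
NANOG, chr12:7789152-7789401: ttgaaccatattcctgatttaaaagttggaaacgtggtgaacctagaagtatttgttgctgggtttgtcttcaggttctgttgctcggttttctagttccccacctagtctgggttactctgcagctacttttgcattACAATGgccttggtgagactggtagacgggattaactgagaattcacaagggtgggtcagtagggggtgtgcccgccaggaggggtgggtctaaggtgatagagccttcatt
The SOX2 window is the richest of the 3 in CpG, with 20 CpG dinucleotides and 68.8% GC, against medians of 11 CpG and 58% GC over 35116 windows of the same length. It holds 1 GC box, found in 42.6% of all windows, and 1 CCAAT box, found in 32.0%. The SOX4 window holds 8 CpG, 48.8% GC and 4 CCAAT boxes. The NANOG window holds 4 CpG, 47.6% GC and 1 SOX core, which 9.29% of all windows hold. These matches describe letters only.

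SOX2 was the only member called higher in H-INV cells. Its brighter probe read 306, 276 and 333 scanner units on H-INV arrays 1, 2 and 3, against 158, 142 and 145 on L-INV arrays 1, 2 and 3. All H-INV arrays were thus well above all L-INV arrays, and the L-INV readings lay at the edge of background: the lowest intensity that counted as above background was between 140 and 157 on the 6 arrays, and L-INV 2 missed it with a detection p of 0.0169. After background correction and quantile normalization the log2 values were 7.82, 7.51 and 7.83 in H-INV cells, against 5.50, 5.34 and 5.59 in L-INV cells. The mean was 7.72 ± 0.184 in H-INV cells, against 5.48 ± 0.126 in L-INV cells (SD, n = 3 each), a log2 fold change of 2.24 (SE 0.11, 95% interval 2.00 to 2.49), or 4.73-fold, with limma's adjusted p = 5.20e-07. Of the 10279 genes tested, 83 had a log2 fold change at least as high as that of SOX2, itself included.

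The second SOX2 probe gave nearly the same picture. It read 298, 295 and 284 units in H-INV cells, against 152, 141 and 151 units in L-INV cells, where 1 of the 3 arrays was above background. Its log2 values were 7.76, 7.66 and 7.49 in H-INV cells, against 5.34, 5.28 and 5.78 in L-INV cells, with no overlap. The log2 fold change was 2.17 (SE 0.14), or 4.50-fold, with limma's adjusted p = 6.01e-06 over the 16941 probes above background, of which 52.8% were called. Of the 7 member probes in that fit, 5 were called. Since SOX2 was so near background in L-INV cells, the size of its fold depends on how background is removed: without background correction the log2 fold change of the brighter probe was 1.10, and with an offset of 50 in place of 16 it was 1.64, with the direction and the call kept. SOX2 lies within SOX2-OT, a long noncoding RNA gene on the same strand, whose 1 probe was above background on none of the arrays.

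SOX4, a factor of progenitor cells that is often raised in carcinomas, moved the other way. Its probe read 139, 156 and 151 units in H-INV cells, against 466, 434 and 356 units in L-INV cells. Here the H-INV arrays were the ones at the edge of background, with H-INV 1 just under it at a detection p of 0.0130. The log2 values were 5.43, 5.88 and 5.68 in H-INV cells, against 8.29, 8.36 and 8.10 in L-INV cells, and the groups did not overlap. The mean was 5.66 ± 0.226 in H-INV cells, against 8.25 ± 0.134 in L-INV cells (SD, n = 3 each), a log2 fold change of -2.58 (SE 0.12, 95% interval -2.86 to -2.31), or 6.00-fold lower, with limma's adjusted p = 4.46e-07. Of the 10279 genes tested, 111 had a log2 fold change as low as that of SOX4 or lower, itself included. Without background correction the log2 fold change was -1.42, again past the threshold.

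SOX9 was lower in H-INV cells by less than 2-fold. The probe was above background on all 6 arrays and read 737, 862 and 879 units in H-INV cells, against 1589, 1489 and 1114 units in L-INV cells. The lowest L-INV reading, that of array 3, still lay above the highest H-INV reading. The log2 values were 9.42, 9.61 and 9.58 in H-INV cells, against 10.33, 10.41 and 10.06 in L-INV cells, which gives a log2 fold change of -0.73 (SE 0.10, 95% interval -0.96 to -0.49), or 1.66-fold lower, with limma's adjusted p = 0.000380.

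BMI1 showed the smallest called difference among the members. It read 724, 684 and 780 units in H-INV cells, against 1105, 933 and 813 units in L-INV cells, so that H-INV 3 and L-INV 3 were close but did not cross. The log2 values were 9.38, 9.23 and 9.37 in H-INV cells, against 9.76, 9.69 and 9.58 in L-INV cells. The log2 fold change was -0.35 (SE 0.08, 95% interval -0.53 to -0.17), or 1.27-fold lower, with limma's adjusted p = 0.00496. RefSeq also annotates a readthrough gene, COMMD3-BMI1, over the same exons, and the BMI1 probe was not checked against its sequence. COMMD3 itself, the next gene, was lower in H-INV cells with a log2 fold change of -0.53 (SE 0.07, limma's adjusted p = 0.000357).

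MYC, which drives ribosome production and cell growth, was far above background on every array and did not pass the test. The brighter probe read 4360, 5088 and 5156 units in H-INV cells, against 5056, 4216 and 4674 units in L-INV cells, and the groups overlapped. Its log2 values were 12.13, 12.32 and 12.28 in H-INV cells, against 12.12, 11.98 and 12.25 in L-INV cells, a log2 fold change of 0.12 (SE 0.09, 95% interval -0.08 to 0.33, limma's adjusted p = 0.273). The second probe, with log2 values of 10.91, 10.86 and 11.02 in H-INV cells, against 10.80, 10.77 and 10.70 in L-INV cells, gave 0.17 (limma's adjusted p = 0.0866). It passed the threshold without background correction (0.16, adjusted p = 0.0269) and with an intensity trend in limma's prior (adjusted p = 0.0256), so a small rise of MYC is neither shown nor set aside by these arrays.

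**Figure D1:**
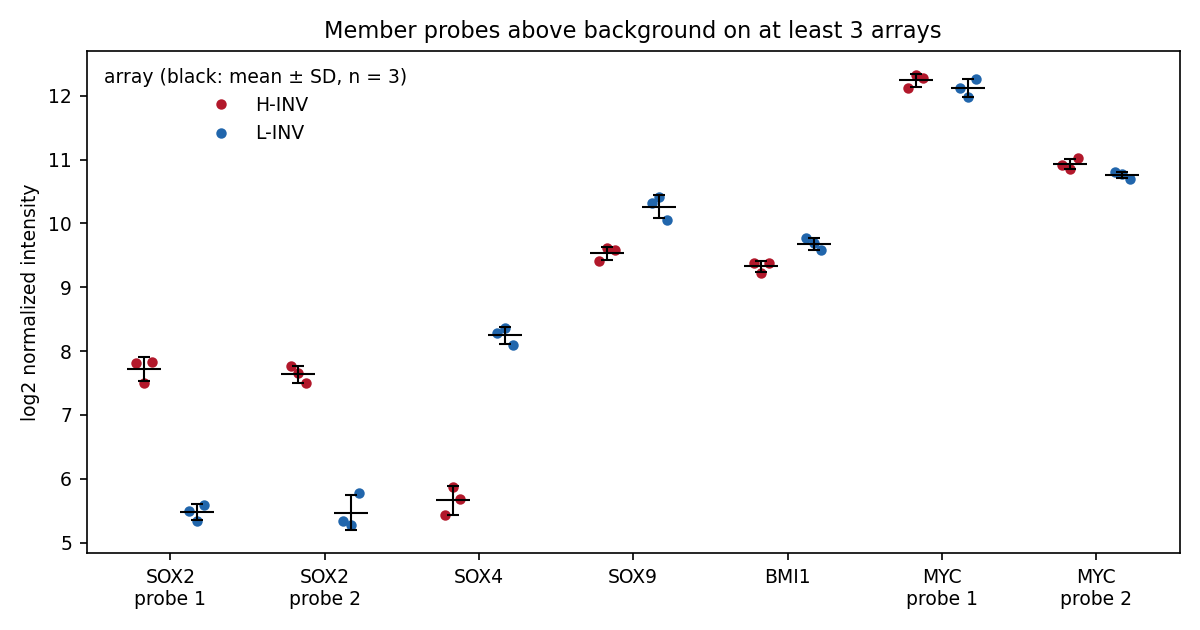
Log2 normalized intensity (y axis) of the 7 member probes that were tested, with H-INV arrays (red) to the left of L-INV arrays (blue) for each probe and black bars for the mean ± SD of 3 arrays. Both SOX2 probes are higher in H-INV cells, SOX4, SOX9 and BMI1 are lower, and the MYC arrays lie close together; levels of different probes are not comparable with each other.

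Of the 5 tested members, the 3 H-INV and the 3 L-INV arrays did not overlap for SOX2, SOX4, SOX9 and BMI1 and overlapped for the brighter MYC probe, though not for the second. Over all genes tested, the arrays of 64.5% did not overlap, 36.3% with H-INV cells higher and 28.2% with H-INV cells lower. In bulk RNA such as this, fewer cells that express a gene and less of its RNA per cell cannot be told apart.

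The partners of SOX2 in the pluripotency circuit were at background in both subpopulations. The 7 probes of POU5F1, NANOG, LIN28A, LIN28B and SALL4 read between 0.655 and 0.977 times the lowest intensity that counted as above background on the same array, with detection p-values between 0.0104 and 0.996. The first POU5F1 probe read 129, 117 and 134 units in H-INV cells, against 127, 127 and 119 units in L-INV cells, and the second read 107, 106 and 110 units in H-INV cells, against 121, 124 and 108 units in L-INV cells. NANOG, the homeobox factor of the circuit, read 111, 106 and 114 units in H-INV cells, against 122, 110 and 108 units in L-INV cells with 1 probe, and 107, 114 and 110 units in H-INV cells, against 106, 110 and 109 units in L-INV cells with the other. With each of these 4 probes the readings of the subpopulations overlap, and they lie around or under the array medians, which were 123 to 134 units.

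LIN28A read 112, 105 and 116 units in H-INV cells, against 103, 113 and 108 units in L-INV cells. LIN28B, its paralog, read 107, 104 and 110 units in H-INV cells, against 122, 113 and 112 units in L-INV cells, which was a little more in L-INV cells on every array but at background throughout. SALL4, whose subpopulations did not overlap, came nearest to detection, with 120, 113 and 115 units in H-INV cells, against 144, 130 and 138 units in L-INV cells, and a lowest detection p of 0.0104 on L-INV 3.

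A reading at background does not show that a message is missing. The single probe of NPM1, an abundant nucleolar protein gene, was likewise above background on none of the 6 arrays. POU5F1 and NANOG also have processed pseudogenes of nearly the same sequence, so their probes may not tell the gene from its copies. Their RNA was not detectable by these probes, and no fold is given.

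**Figure D2:**
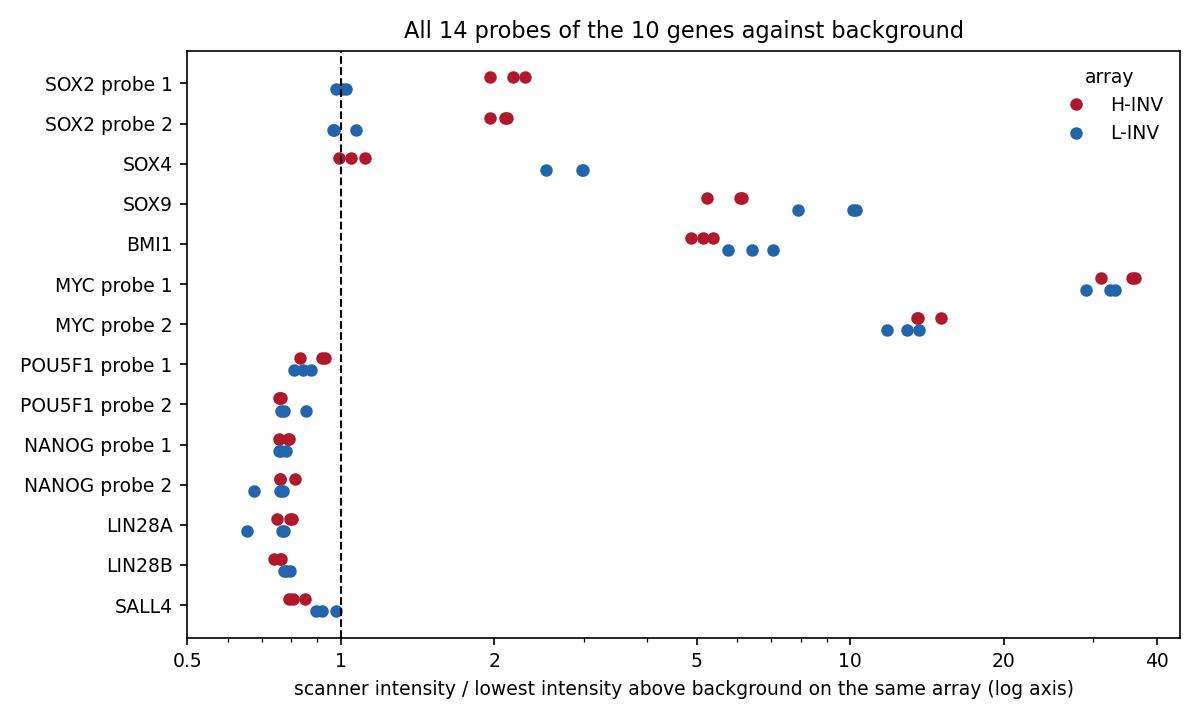
Scanner intensity divided by the lowest intensity above background on the same array (x axis, log scale) for all 14 probes, 1 point per array, H-INV (red) drawn above L-INV (blue); the dashed line at 1 is the edge of background. SOX2 lies clear of the line in H-INV cells and at it in L-INV cells, SOX4 the other way round, SOX9, BMI1 and MYC lie above it on every array, and the 7 probes of the other 5 genes stay below it.

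The SOX family, taken as a list of 20 genes that includes SOX2, SOX4 and SOX9, was mostly at background or lower in H-INV cells. Of 20 genes with a probe, 8 were tested, 2 were higher, 5 lower and 1 did not pass, with a median log2 fold change of -0.45, and 10 were above background on no array. Among the tested SOX genes 87.5% were called, against 58% of all genes tested. SOX21 and SOX30 were above background only in L-INV cells, on 1 and 2 arrays. SOX8, a relative of SOX9, was higher with a log2 fold change of 0.83 (SE 0.07), while SOX7, an endothelial and endoderm factor, was lower at -1.14 (SE 0.07) and at -1.30 by its other probe. SOX13 (-0.52) was lower and SOX12 (-0.38) barely so, with limma's adjusted p = 0.0132, and it was lost with the test the methods name (adjusted p = 0.0682). SOX18, an endothelial factor, gave 0.09 (adjusted p = 0.390). SOX1 and SOX3, the closest relatives of SOX2, were at background on all arrays.

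**Figure D3:**
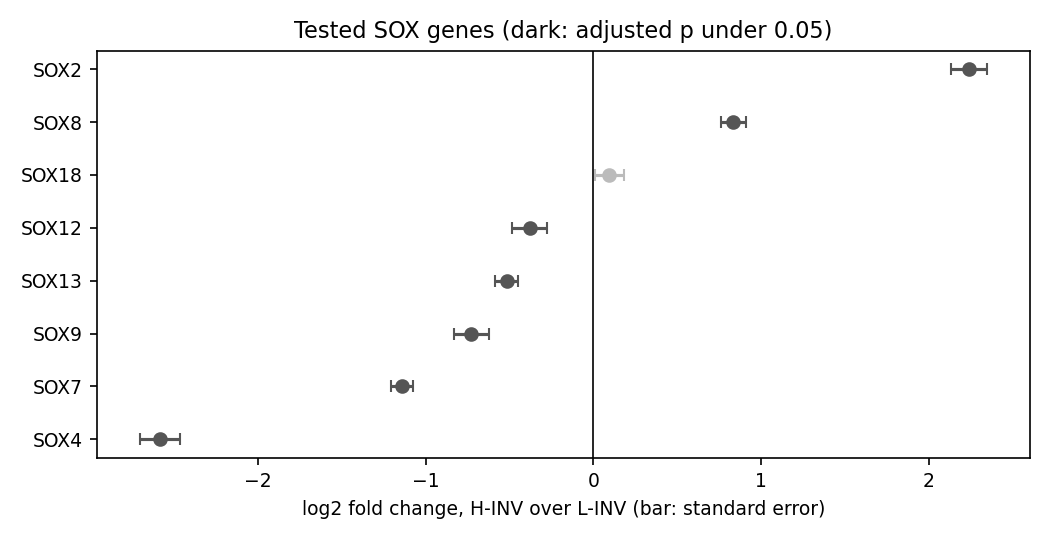
Log2 fold change, H-INV over L-INV (x axis), of the 8 SOX genes tested, with bars for the standard error; dark points passed the adjusted p threshold of 0.05. SOX2 at 2.24 and SOX8 at 0.83 lie above 0, and SOX4 at -2.58 lies farthest below it.

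Around SOX2, other genes of the pluripotency network were mostly undetected. Of 34 genes listed, none of them a member, 30 had a probe, 21 were above background on no array and 8 were tested, of which 5 were higher and 3 lower in H-INV cells. All 8 were thus called, against 58% of all genes tested. The undetected ones include ZFP42, DPPA4, LEFTY1, NODAL, L1TD1 and FGF4, all markers of embryonic stem cells. SALL2, a zinc finger relative of SALL4, had log2 values of 7.84, 7.70 and 7.81 in H-INV cells and was above background on no L-INV array, which makes it at least 4.97-fold higher; it was tested through its H-INV arrays alone, so its direction was fixed by the filter. Here and below, "at least" sets the mean of the detected group against the lowest level above background in the other, and the direction of every such gene was fixed by the filter. KLF4 and KLF2, Krüppel-like factors of the same network, were lower, with log2 fold changes of -3.42 (SE 0.08) and -2.12 (SE 0.08), and the other KLF4 probe gave -1.83. TBX3, a T-box factor, was higher at 1.47 (SE 0.07).

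TERT, the telomerase catalytic subunit, was at least 1.61-fold higher, and KLF5 was at least 1.23-fold higher. DNMT3B, a de novo DNA methyltransferase, was higher at 0.93 and 0.65 with the 2 of its 5 probes that passed the detection filter. TERT and KLF5, like SALL2, entered the test through their H-INV arrays alone and so had to come out higher. The median log2 fold change of the 8 tested genes was 0.76, or 0.49 with those 3 at their bound. Without any 1 of H-INV 1, 2 or 3 these genes had too few arrays above background, and 2 higher calls were left.

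The LIN28 and let-7 axis was tested through the genes around LIN28A and LIN28B. Of 20 genes with a probe, 16 were tested, 5 were higher, 2 lower and 9 did not pass, with a median log2 fold change of 0.12. That is 43.75% called, against 58% of all genes tested. The largest change was that of CDC25A, a cell cycle phosphatase and let-7 target, at 1.26 (SE 0.09, limma's adjusted p = 5.34e-06). XPO5 and DGCR8, which export and process microRNA precursors, were higher at 0.54 and 0.52. HMGA1, a chromatin protein, was lower at -0.39 and kept its call under all 16 alternatives. IGF2BP3 was lower at -0.19 (limma's adjusted p = 0.0369). The lower calls were 1 in place of 2 without H-INV 1 or 2 or any L-INV array, HMGA1 being the one kept. HMGA2 and TRIM71, let-7 targets of embryonic cells, were at background on all arrays.

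The let-7 microRNAs that the LIN28 proteins restrain share 1 seed, bases 2 to 8, in capitals below. It is common to the 12 RefSeq genes of the family, miR-98 included, which make 9 different mature 5p names.
hsa-let-7a-5p: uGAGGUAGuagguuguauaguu
hsa-let-7d-5p: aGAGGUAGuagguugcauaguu
hsa-let-7i-5p: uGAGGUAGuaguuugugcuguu
The array carries probes for precursors, not for these mature forms, and 3 of the 9 let-7 precursor probes were above background on any array. MIRLET7D had log2 values of 5.89, 6.39 and 6.20 in H-INV cells, against 5.68, 6.04 and 5.68 in L-INV cells, which overlap (log2 fold change 0.36, limma's adjusted p = 0.0631). MIRLET7I had 5.69, 5.76 and 5.70 in H-INV cells, against 5.70, 5.66 and 5.72 in L-INV cells (0.02, adjusted p = 0.762). Another embryonic microRNA gene, MIR302C, was named after its values were seen: its log2 values were 6.45, 6.40 and 6.42 in H-INV cells, against 8.16, 8.22 and 8.22 in L-INV cells, a log2 fold change of -1.78 (SE 0.06, adjusted p = 7.93e-08), while the probes for MIR302A, MIR302B, MIR302D, MIR302E and MIR302F, its family, were at background on all arrays.

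Genes that MYC is known to activate were higher in part, although MYC itself did not pass. By their brightest probes, 13 of 21 target genes tested were higher in H-INV cells, 0 were lower and 8 did not pass. The called share was 61.9%, against 58% of all genes tested, of which 32.6% were higher and 25.4% lower. The median log2 fold change of the targets was 0.38. The 4 largest, all of ribosome production, were RRP9 at 1.13 (SE 0.16), NOP16 at 0.88 (SE 0.10), NOP56 at 0.72 (SE 0.06) and POLR1B at 0.70 (SE 0.10). ODC1, CAD and LDHA, enzymes of polyamine, pyrimidine and lactate metabolism, gave -0.07, 0.55 and -0.04, of which CAD passed. Other LDHA probes gave -0.20 and -0.38, both lower past the threshold (limma's adjusted p = 0.0324 and 0.0302 over probes). For HSPD1, whose brightest probe did not pass, other probes gave 0.27 and 0.31, both called higher.

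Among MYC's dimer partners and antagonists, 8 of 12 genes were tested, 2 were higher, 2 lower and 4 did not pass, so 50% were called, against 58% of all genes tested. MXD3, an antagonist, was higher at 0.90 (SE 0.07), whereas MXD4 was lower at -0.76 (SE 0.09) and MXD1, above background on 1 H-INV array, at -0.67 (SE 0.17). MAX, the shared partner, was higher at 0.42 with its brightest probe, but 1 of its 3 other probes gave -0.65, also past the threshold, so its direction depends on the probe. MYCN and MYCL, the MYC paralogs, were at background.

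Polycomb repressive complex 1, to which BMI1 belongs, had calls in both directions, at a share (58.8%) next to that of all genes tested (58%). Of 17 subunits and partners tested, BMI1 not included, 7 were higher, 3 lower and 7 did not pass, with a median log2 fold change of 0.14. PHC3 (0.53), CBX2 (0.41) and SCMH1 (0.40) were higher, with 1 SCMH1 probe at -0.06, and PCGF5, a relative of BMI1, was lower (-0.40). PCGF2, the closest paralog of BMI1, was higher at 0.36 (SE 0.09, limma's adjusted p = 0.00739). CDKN2A, the gene that BMI1 is best known to repress, was at background with all 3 probes in both subpopulations. Why it was undetected was not tested, so nothing about BMI1 is read from it.

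The NuRD complex, which SALL4 recruits, had 12 genes tested, of which 4 were higher, 1 lower and 7 did not pass, with a median of 0.12. Its called share was 41.7%, against 58% of all genes tested. HDAC2 was lower at -0.63 (SE 0.07), while RBBP4 (0.39), GATAD2A (0.32) and CHD4 (0.31) were higher. The other RBBP4 probes did not pass.

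Factors that pluripotency genes hold back, those of the germ layers, were tested in 8 of 18 cases, of which 5 were higher, 2 lower and 1 did not pass, with a median log2 fold change of 0.45. Of these tested factors 87.5% were called, against 58% of all genes tested. The higher calls were 3 without any 1 of the H-INV arrays or without L-INV 3. FOXA1, an endoderm and airway factor, was lower at -1.94 (SE 0.07), GATA2 was higher at 1.49 (SE 0.10), and HAND1, a mesoderm and trophoblast factor above background in H-INV cells only, was at least 2.67-fold higher. CGA, a hormone subunit gene rather than a factor but counted among the 5 higher, gave 0.52 (SE 0.19), with overlapping arrays. It was above background on 3 H-INV arrays and 1 L-INV array, and did not pass in the fit of single probes (limma's adjusted p = 0.0515). TBXT (brachyury), the mesoderm factor, was bright in both, at a mean of 13.29 in H-INV cells, against 13.22 in L-INV cells, with a log2 fold change of 0.07 (adjusted p = 0.403). Of the genes that go with SOX2 in squamous and basal lung cells, 11 had a probe and PAX9 alone was tested, at -0.35 (SE 0.09), while KRT5, KRT14, DSG3 and TRIM29 were at background.

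**Figure D4:**
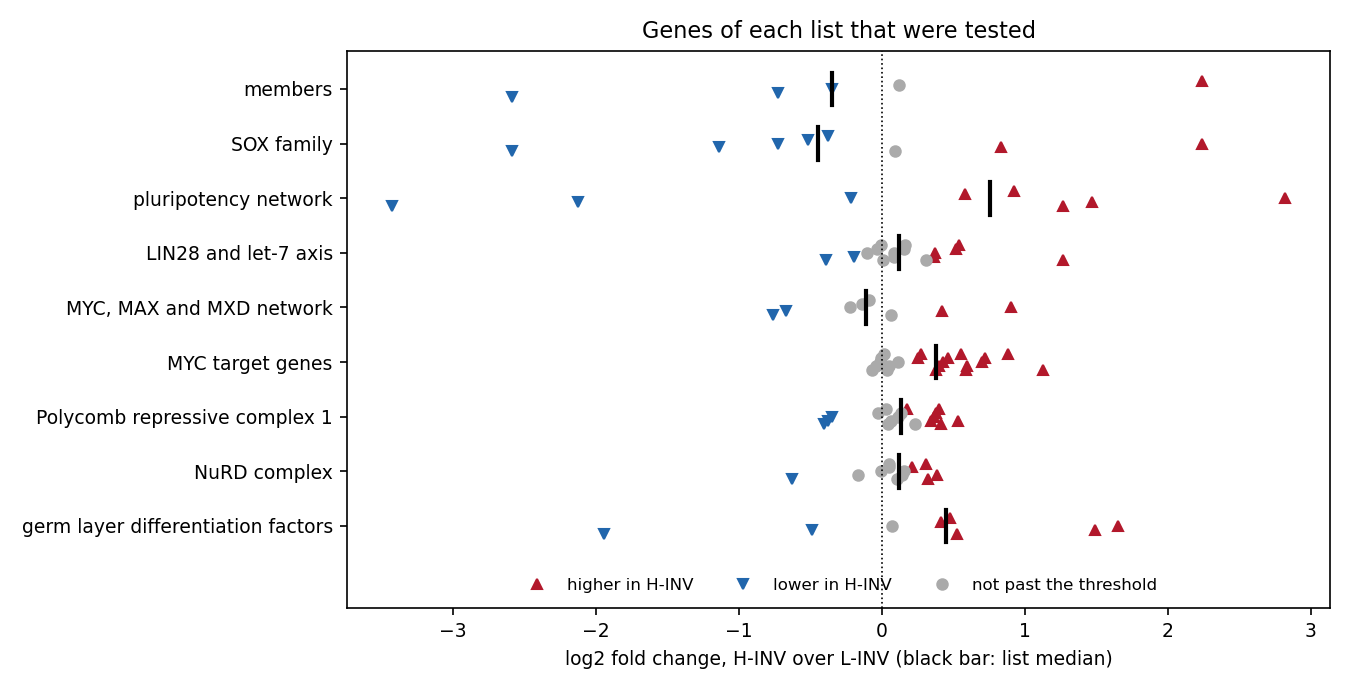
Log2 fold change, H-INV over L-INV (x axis), of each tested gene in 9 lists, with red triangles for genes higher in H-INV cells, blue for lower and grey circles for genes that did not pass; black bars are list medians. The MYC targets lie from -0.07 to 1.13 with none called lower by its brightest probe. The pluripotency network spreads from -3.42 to 2.82, the fitted values of genes undetected in L-INV cells included.

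None of the genes next to SOX2 on its chromosome changed as much as SOX2. Of the 10 nearest tested genes, 5 on each side, 3 were higher and 7 did not pass, none was past 2-fold, and their log2 fold changes ran from -0.12 to 0.28, with a median of 0.12. SOX4 had CASC15, a long noncoding RNA, as its next tested gene, which was above background in L-INV cells only, so that the filter fixed its direction, and was lower by at least 2.53-fold in H-INV cells. Of the 10 neighbours of SOX4, 3 were higher, 3 lower and 4 did not pass, with RNF144B (at least 1.44-fold lower) and ALDH5A1 (-1.13) past 2-fold in the fit as well, and a median of 0.03.

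SOX9 had more changed neighbours past 2-fold in the fit, 5 of 10, with 1 higher, 5 lower and 4 not past the threshold in all. Over all genes tested, 10.2% were called past 2-fold. ABCA8, a lipid transporter, fell by 3.38 on the log2 scale, PRKAR1A, a regulatory subunit of protein kinase A, fell by 1.25, and MAP2K6, a stress kinase, was higher at 1.13. ABCA9 and KCNJ2, above background in L-INV cells only, were at least 2.73-fold and at least 1.97-fold lower, so KCNJ2 need not be past 2-fold. Of the 10 neighbours of BMI1, 3 were higher, 4 lower and 3 did not pass, and SKIDA1, also undetected in H-INV cells, was at least 4.48-fold lower.

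**Figure D5:**
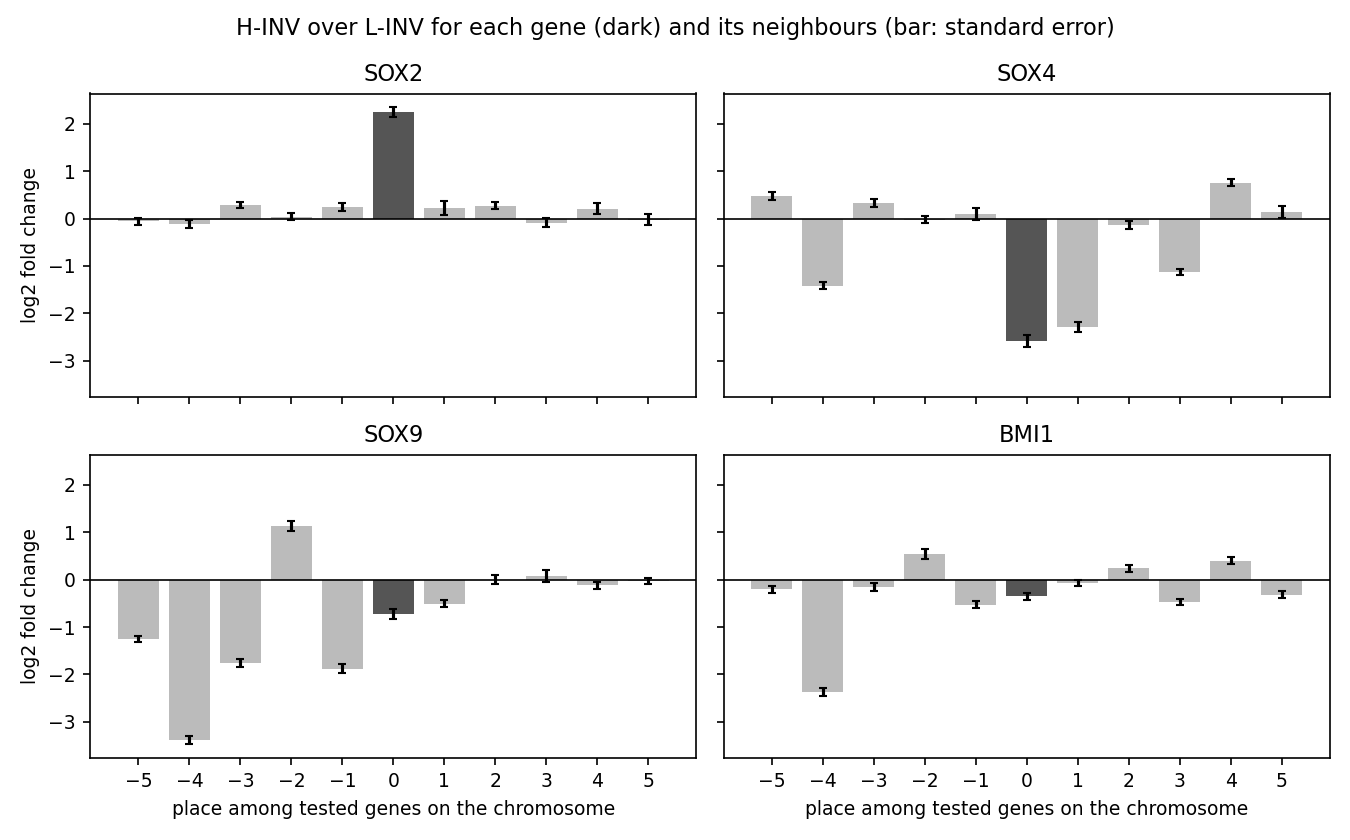
Log2 fold change, H-INV over L-INV (y axis), of SOX2, SOX4, SOX9 and BMI1 (dark bars, place 0) and of the 5 nearest tested genes on either side (grey), with bars for the standard error. The SOX2 neighbours stay between -0.12 and 0.28, CASC15 at place 1 beside SOX4 is fitted at -2.29, and ABCA8 at place -4 of SOX9 is at -3.38.

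The genes whose pattern over the 6 arrays was most like that of SOX2, by the root mean square distance of log2 values centred on each gene's mean, were ARRB1 (0.0989), ZFP82 (0.111), NECTIN3 (0.114), DDC (0.115) and DIO2 (0.129). ARRB1, an arrestin, had log2 values of 9.42, 9.36 and 9.38 in H-INV cells, against 7.14, 6.94 and 7.18 in L-INV cells. DDC, the decarboxylase that makes dopamine and serotonin, and ZFP82, a zinc finger gene, were above background in H-INV cells only, at least 3.06-fold and at least 2.26-fold higher, so their distances rest on L-INV readings at background. With 2 groups of 3 arrays, likeness of this kind reflects the size of the difference between the subpopulations for the most part.

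The arrays themselves were alike in quality. Between 16368 and 16985 probes were above background per array, and log2 values correlated at 0.995 to 0.996 across genes within a subpopulation and at 0.920 to 0.927 between them. The same BeadChip number is given for each of the 6 arrays. Its section letters run from A to C for L-INV cells and from D to F for H-INV cells. An effect of the section thus cannot be told apart from one of the subpopulation. Of the 6 lung lineage markers listed, NKX2-1 and the surfactant genes among them, none was above background on any array. Of 6 epithelial markers, 5 were tested and CDH1 was at background: KRT19 was lower in H-INV cells (-4.12), KRT8 too (-0.30), EPCAM was at least 1.90-fold lower, KRT7 was higher (1.09) and KRT18 gave -0.27 without passing. The 4 endothelial markers were at background, as were the leukocyte markers PTPRC, CD3E and LYZ, while CD14 was lower (-1.51). The fibroblast marker COL3A1 was higher (1.12), COL1A1 was above background on 2 H-INV arrays only, PDGFRB on 2 L-INV arrays only, and COL1A2, DCN and LUM were at background. Of the neuroendocrine markers, NCAM1 was at least 1.78-fold higher, CHGA at least 1.23-fold lower, and SYP and INSM1 were at background. The part of these markers in the SOX2 and SOX4 values was not tested.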

How the data were processed

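Total RNA of 3 sets of H-INV and 3 sets of L-INV H460 cells was hybridized to Illumina HT-12 v4 BeadChips. The authors deposited a scanner table of probe intensity, linear and neither background-corrected nor normalized, with a detection p-value per probe and array, and a second table of intensity that they had background-corrected and quantile normalized, used here as an alternative after adding 40. Their processing notes name GenomeStudio and Partek without versions. The scanner values were then corrected for background here (normexp with control levels inferred from detection, offset 16; limma 3.58.1, R 4.3.3), quantile normalized and put on the log2 scale. The offset understates the fold of dim genes. A probe was kept if 3 or more of the 6 arrays had a detection p under 0.01, the brightest probe stood for a gene, and lmFit and eBayes gave two-sided p-values, Benjamini-Hochberg adjusted over 10279 genes (16941 probes in the fit of single probes).

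Probes were named from the platform annotation: 30111 of 47322 had 1 symbol, 8 several and 17203 none, and 0 symbols were updated. Genes of the lists with no probe under their symbol were not analysed here. The members and the lists were chosen with earlier results of these data known. Besides the members, the text names up to 4 called genes per list with the largest change, every called SOX gene, neighbours past 2-fold and the 5 genes nearest to SOX2, and a few others as examples chosen after their values were seen. Sequences are from RefSeq, GRCh38.p14, whose gene table also gave the order of genes on chromosomes. On simulated data for this comparison with 10279 genes, 100 of 100 genes changed 3-fold and 94 of 100 changed 1.5-fold were found, with 14 false calls. Few genes were changed in the simulation, whereas 58% were called in the data, so these rates need not hold here. Precision is limited by having 3 arrays a group. The alternatives tried were the second deposited table, a one-way ANOVA (the methods' test), no background correction, an offset of 50, scaling to the 75th percentile, no detection filter, detection on all 6 arrays, the mean of probes, a trend in the prior, the replicate number as a block, and each array left out.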

Additional observations from a re-analysis of the deposited data

How the results depend on the processing

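The calls of SOX2, SOX4, SOX9 and BMI1 and the lack of one for the brighter MYC probe kept their direction and side of the threshold under every alternative that tested them, which was 15 for SOX2 and SOX4 and 16 for the others. The log2 fold change of SOX2 ran from 1.10 to 2.35, of SOX4 from -2.69 to -1.42, of SOX9 from -0.83 to -0.66, of BMI1 from -0.40 to -0.30 and of MYC from 0.06 to 0.19, the smallest sizes of SOX2 and SOX4 being those without background correction. Requiring detection on all 6 arrays removed SOX2 and SOX4 from the test, so 0 members were called higher. Without a detection filter the lower calls were 4, SALL4 included, but its readings were at background on all 6 arrays and give no fold.

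Some list counts moved by over 1.5 times. Higher calls in the pluripotency network were 2 in place of 5 with detection on all 6 arrays and without each of H-INV 1, 2 and 3, and those of the germ layer factors were 3 in place of 5 under the same settings and without L-INV 3. The lower calls of the LIN28 and let-7 axis were 1 in place of 2 without H-INV 1 or 2 or any L-INV array, with the block, with 75th percentile scaling and with no filter. The ANOVA left 1 of 3 lower calls in Polycomb repressive complex 1, 1 of 2 among the germ layer factors and in the MXD network, and 0 of 1 for PAX9, and SOX12, PCGF5, RBBP4, SCMH1 and MXD1 lost their calls. Higher calls in the MXD network were 4 without a filter and 1 with the mean of probes, in place of 2, where MAX was lost; those of the SOX family were 1 in place of 2 with detection on all 6 arrays, and 1 MYC target was lower with the mean of probes. CGA was lost under 7 settings. Over all genes the ANOVA called 5178 genes, against 5957.

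Same-numbered arrays did not deviate together (correlations of -0.07, -0.02 and -0.09). These correlations do not show how the sets were prepared, so whether the numbers pair them is not settled. With the replicate number as a block 5647 genes were called, and no member's call changed (SOX2 2.24, adjusted p = 2.24e-06). The lowest and highest log2 fold changes of SOX2 with 1 array left out were 2.17 and 2.35. Genes at the edge of background, SOX2 in L-INV cells and SOX4 in H-INV cells, have folds whose size follows the background step.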
